A study of Homo sapiens with 36 samples.

Results

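Molecular chaperones bind unfolded or misfolded proteins and help them reach or keep their folded state, and 39 genes for chaperones and protein folding enzymes, chosen by name, are described here in 3 acute myeloid leukemia cell lines exposed to chemotherapy. Of 59041 genes in the tables, the 39 comprise 28 genes for proteins of the cytosol, 3 for proteins of the mitochondrial matrix and 8 for proteins of the endoplasmic reticulum (ER), and 37 had enough counts to be tested in all 3 lines. In the cytosol, HSP70 and HSP90 proteins hold and release client proteins in cycles driven by ATP, helped by co-chaperones that deliver clients, start hydrolysis or exchange nucleotides, while the ring-shaped chaperonin TRiC/CCT encloses proteins such as actin and tubulin. Mitochondria import unfolded proteins and fold them with their own HSP70 and with the HSP60/HSP10 chaperonin. The ER folds secreted and membrane proteins with an HSP70 (BiP, from HSPA5), an HSP90 (GRP94, from HSP90B1), lectin chaperones that bind sugar chains, and protein disulfide isomerases. Expression of cytosolic chaperones is classically driven by heat shock factors through heat shock elements, that of ER chaperones by the unfolded protein response through ER stress elements.

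The established lines HL60, MOLM13 and OCIAML3, all labelled wild type, were exposed for 24 h to 0.1 µM cytarabine (a nucleoside analog built into DNA), to 0.02 µM daunorubicin (an anthracycline that intercalates into DNA and blocks topoisomerase II), to both at the same doses (called the combination), or to the solvent DMSO, which served as control. Each of these 12 groups had 3 libraries labelled as biological replicates, each line being a single cultured population. HL60 and MOLM13 were kept in RPMI, OCIAML3 in alpha-MEM with more serum, so that line and medium cannot be told apart in any contrast between OCIAML3 and the others. RNA was extracted with Trizol and sequenced as unstranded, paired-end libraries.

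Library totals ran between 25067734 and 47322144 estimated counts with a median of 32194478. The library labelled OCIAML3 combination replicate 3 stood apart from the other 2 of its group, with a chi-square per gene between counts of 181 and 114 against 27.8 between those 2. The library labelled OCIAML3 cytarabine replicate 3 differed less, with 19.2 from each of its 2 partners against 6.98 between them, which lies within the 6.81 to 58.7 of all other pairs, and both were chosen to be left out with earlier results known. FKBP4 had 418 CPM (counts scaled to the same library size) in combination replicate 3, against 174 and 209 CPM in the other 2 combination libraries, while its 3 DMSO libraries held 397, 398 and 412 CPM. No library was relabelled, and OCIAML3 results are given with all libraries and without these 2. Erythroid markers summed to at most 0.399 CPM in any library and T and B cell markers to at most 12.8 CPM. The myeloid marker MPO averaged 1270 CPM with cytarabine, 3040 CPM with daunorubicin and 681 CPM under the combination, against 3440 CPM in DMSO, in HL60 cells, and whether this shift had a part in the results was not tested. In bulk RNA, fewer cells of a type and less RNA per cell cannot be told apart, and CPM values are shares of a library, not amounts per cell.

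Promoters of the members were examined first, because the ER and cytosolic genes are known to be driven through different elements. Of the 39 members, 35 were matched by symbol to RefSeq promoter windows (GRCh38.p14) of 300 bases, from 250 before to 50 after the start, and HSPA14, CCT6A, FKBP4 and PDIA3 were not. The ER stress element was searched on both strands as CCAAT, then 9 bases of any kind, then CCACG, and it was found in 4 of the 7 ER promoters and in 0 of the 25 cytosolic and 0 of the 3 mitochondrial ones, against 0.0806% of all 27305 promoters. The 4 genes were HSPA5, HSP90B1, CALR (calreticulin) and CANX (calnexin), both of the last being lectin chaperones. HSP90B1 held 2 matches. The element was already known from ER chaperone genes, so these counts show where matches lie and are not an independent result. The 250 bases before the start of each are shown 5′ to 3′ with the matches in capitals, at chr9:125241344-125241593 (minus strand), chr12:103930160-103930409 (plus), chr19:12938359-12938608 (plus) and chr5:179698679-179698928 (plus).
HSPA5: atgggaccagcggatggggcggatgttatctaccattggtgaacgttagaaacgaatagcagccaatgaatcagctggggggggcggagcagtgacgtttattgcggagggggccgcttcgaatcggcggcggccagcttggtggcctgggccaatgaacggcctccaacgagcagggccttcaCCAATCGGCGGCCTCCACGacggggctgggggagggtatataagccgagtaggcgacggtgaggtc
HSP90B1: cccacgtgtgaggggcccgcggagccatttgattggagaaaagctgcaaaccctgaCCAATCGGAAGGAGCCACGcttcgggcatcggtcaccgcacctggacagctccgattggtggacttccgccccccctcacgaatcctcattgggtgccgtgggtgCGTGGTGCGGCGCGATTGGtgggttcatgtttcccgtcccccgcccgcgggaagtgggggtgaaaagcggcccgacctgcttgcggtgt
CALR: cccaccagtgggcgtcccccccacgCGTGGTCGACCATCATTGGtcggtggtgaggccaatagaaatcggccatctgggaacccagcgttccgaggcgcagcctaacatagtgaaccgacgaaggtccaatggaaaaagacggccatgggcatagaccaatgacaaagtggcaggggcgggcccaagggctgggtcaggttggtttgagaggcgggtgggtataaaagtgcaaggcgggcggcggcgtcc
CANX: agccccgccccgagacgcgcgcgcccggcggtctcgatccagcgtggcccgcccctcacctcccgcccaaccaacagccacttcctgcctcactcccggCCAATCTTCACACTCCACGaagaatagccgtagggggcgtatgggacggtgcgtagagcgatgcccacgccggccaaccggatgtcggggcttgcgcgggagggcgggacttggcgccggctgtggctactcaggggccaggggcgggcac

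The heat shock element, searched on both strands as GAA, TTC and GAA or as TTC, GAA and TTC, with 2 bases of any kind between the parts, was found in 2 of the 25 cytosolic promoters, those of HSPA8 and DNAJA1, in 0 of the 3 mitochondrial and 0 of the 7 ER ones, and in 0.487% of all promoters. HSPA8, the constitutive cytosolic HSP70, held 2 matches, here in capitals at chr11:123062137-123062386 (minus strand).
HSPA8: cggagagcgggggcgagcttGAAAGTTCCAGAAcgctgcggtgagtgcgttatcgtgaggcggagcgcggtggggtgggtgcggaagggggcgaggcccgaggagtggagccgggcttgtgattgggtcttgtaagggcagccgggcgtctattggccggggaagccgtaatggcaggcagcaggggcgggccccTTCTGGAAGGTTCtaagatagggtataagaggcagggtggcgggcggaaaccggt
All 3 mitochondrial promoters held the E-box CACGTG, as did that of HSP90B1 among the ER genes and 7.43% of all promoters. HSPD1 and HSPE1, which encode HSP60 and HSP10, start head to head on chromosome 2, and their windows share 204 bases, so they are not separate cases. The window of HSPE1 at chr2:197500129-197500378 (plus strand) carries the E-box in capitals.
HSPE1: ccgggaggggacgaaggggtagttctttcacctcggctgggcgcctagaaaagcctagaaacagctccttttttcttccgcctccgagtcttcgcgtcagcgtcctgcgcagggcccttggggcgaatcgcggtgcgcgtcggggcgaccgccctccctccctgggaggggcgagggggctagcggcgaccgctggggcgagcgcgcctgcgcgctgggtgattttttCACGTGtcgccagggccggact
A match is a run of letters and was not tested as a binding site. Only exact matches to the letters given were counted, so a promoter without a match may still hold an imperfect element. A CCAAT box, part of the ER stress element, occurred in 6 of 7 ER promoters, 9 of 25 cytosolic promoters, 0 of 3 mitochondrial promoters and 35.7% of all promoters.

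The stress-inducible HSP70 genes HSPA1A and HSPA1B could not be measured. HSPA1A was listed at 0 in 35 of 36 libraries, with a highest count of 6, and HSPA1B at 0 in 32 of 36, with a highest count of 16. The pair are near-identical copies on chromosome 6. Of the transcripts with no match in the annotation, 4 had the length of the HSPA1A transcript, with mean counts of 69.8 in HL60, 39.1 in MOLM13 and 68.5 in OCIAML3, and 1 had that of HSPA1B, with 0.0, 1.14 and 3.45. Whether these are copies of the genes was not tested, and no level is given for either. CANX was also uncertain between lines: its most abundant transcript in the other lines was at 0 in HL60, and the only transcript of the same length with no match in the annotation held a mean of 26300 counts there. Unmatched transcripts of the same lengths as its top 2 transcripts held 1910% and 510% of the counts given to the gene in HL60, against 48.9% and 41.5% in MOLM13, and whether they belong to CANX was not tested. If they do, every CANX value in HL60, in counts of members too, rests on a small part of its counts. Its level is not compared between lines. HSPA14 shares its main length with 6 unmatched transcripts whose counts came to 49.0% to 53.0% of its own, and HSPD1 and HSPE1 overlap on opposite strands in unstranded libraries, so single values of these 3 genes are uncertain.

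In DMSO cells CALR, HSP90AB1, HSPA8 and HSPE1 had the 4 highest mean levels of the members in HL60 and MOLM13, and HSPA8, HSP90AB1, HSP90AA1 and CCT5 in OCIAML3, on the TPM scale (shares of transcripts, corrected for length). In HL60, CALR stood at 1460 ± 39.6 TPM, HSP90AB1 (the constitutive HSP90) at 1350 ± 111 TPM, HSPE1 at 1110 ± 110 TPM and HSPA8 at 1100 ± 275 TPM (SD, n = 3 each). The spreads of CALR and HSP90AB1 overlapped, as did those of HSPE1 and HSPA8, and HSPA8 reached into the spread of HSP90AB1. In MOLM13 the order was HSP90AB1 at 1520 ± 35.8 TPM, CALR at 1420 ± 119 TPM, HSPA8 at 1360 ± 134 TPM and HSPE1 at 897 ± 75.4 TPM, of which the first 3 overlapped in spread. In OCIAML3 HSPA8 led with 1750 ± 52.4 TPM, followed by HSP90AB1 at 1410 ± 29.6 TPM and HSP90AA1, the inducible HSP90, at 854 ± 55.9 TPM. The 8 TRiC subunits, which share the ring in equal numbers, lay between 299 TPM (CCT4) and 560 TPM (CCT5) in HL60, between 215 TPM (CCT4) and 565 TPM (TCP1) in MOLM13, and between 238 TPM (CCT4) and 840 TPM (CCT5) in OCIAML3.

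**Figure D1:**
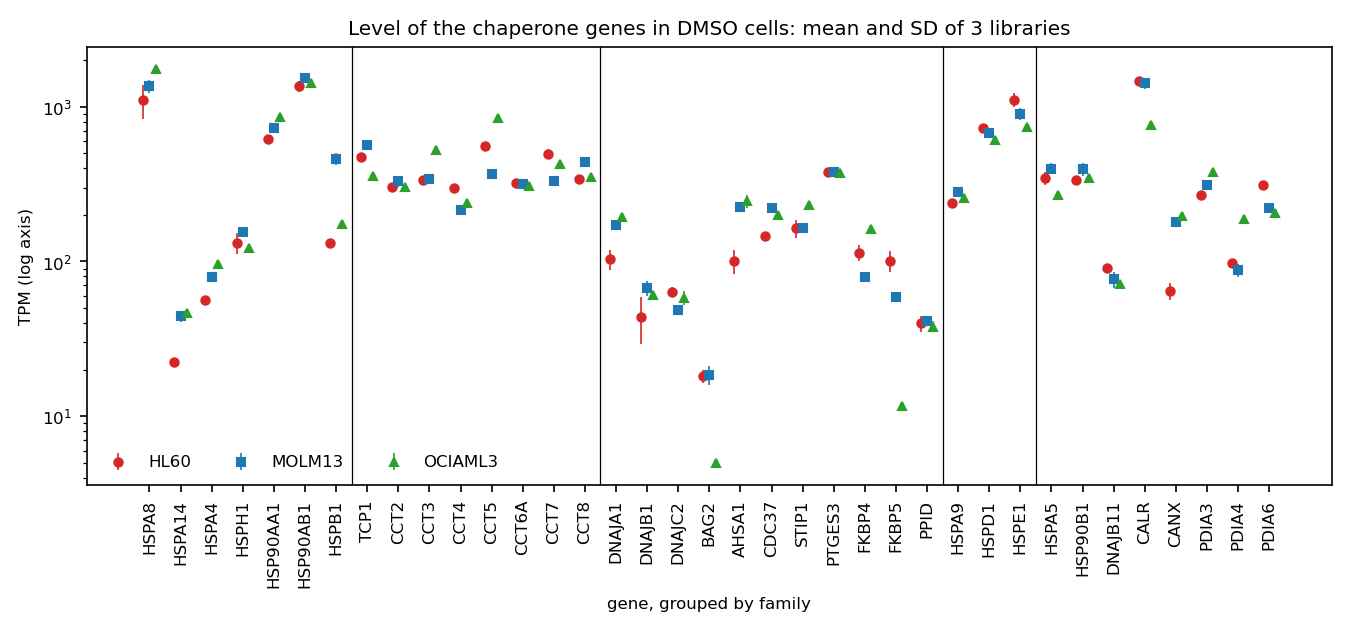
Mean TPM (log axis) of the 37 tested chaperone genes in DMSO cells of each line, with the SD of 3 libraries as bars and genes grouped by family. Most genes lie close together in the 3 lines, and FKBP5 and BAG2 lie lowest in OCIAML3. The HL60 value of CANX is uncertain, since an unmatched transcript of the same length held more counts there than the gene did. Whether that transcript belongs to CANX was not tested.

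Between the lines, 17 members differed in DMSO level between MOLM13 and HL60, 26 between OCIAML3 and HL60 and 25 between OCIAML3 and MOLM13 at a false discovery rate (FDR) under 0.05 in edgeR's quasi-likelihood test across 36 libraries. Counting CANX, whose HL60 level is uncertain, of MOLM13 over HL60 9 members were higher and 8 lower, beside backgrounds of 30.3% of all genes higher and 22.7% lower. Of OCIAML3 over HL60, 7 were higher and 19 lower (backgrounds 34.4% and 28.1%), and of OCIAML3 over MOLM13, 4 were higher and 21 lower (26.9% and 28.1%). FKBP5, a co-chaperone of steroid receptor complexes whose gene responds to glucocorticoids, held 31.7, 31.8 and 33.9 CPM in OCIAML3 DMSO cells, against 207, 197 and 206 CPM in MOLM13 and 319, 390 and 364 CPM in HL60. No library overlapped between these groups, and the log2 difference was -3.46 ± 0.21 (SE, FDR = 1.31e-14) for OCIAML3 minus HL60. BAG2, a nucleotide exchange factor of HSP70, differed by -2.23 ± 0.20 in the same contrast, and CALR by -1.33 ± 0.19. HSPB1, the small heat shock protein HSP27, was higher in MOLM13, with 292, 261 and 247 CPM, than in HL60, with 78.4, 73.1 and 78.1 CPM, a log2 difference of 1.80 ± 0.19 (FDR = 3.55e-09).

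Members of all 3 compartments were lower after drug exposure in HL60 and MOLM13. At the same doses and exposure time, the paper measured cell death in these lines. It reports high cell death in MOLM13 after each treatment and in all lines after the combination. HL60 is reported to respond least to daunorubicin, and OCIAML3 not to respond to cytarabine. The paper also set a minimum RNA integrity for sequencing. Whether cell death or RNA integrity had a part in the falls was not tested. In HL60, 33 of 37 tested members fell and 0 rose after cytarabine, beside 22.0% of all genes that fell and 23.6% that rose. After the combination 34 fell and 0 rose (backgrounds 25.3% and 28.1%). After daunorubicin 15 fell and 1 rose (backgrounds 9.14% and 12.8%). In MOLM13, 28 fell and 0 rose after cytarabine (17.8% and 17.1%), 34 fell and 0 rose after daunorubicin (25.7% and 26.9%), and 34 fell and 0 rose after the combination (26.0% and 27.0%). The median log2 change over the tested members was -0.94, -0.39 and -1.16 in HL60 for cytarabine, daunorubicin and combination, and -0.49, -0.92 and -0.94 in MOLM13, while the median over all genes was between 0.01 and 0.07. With a fall of over 2-fold also required, 18 members passed in HL60 after cytarabine (background 3.12%) and 23 after the combination (background 6.29%), 17 in MOLM13 after daunorubicin (5.71%) and 16 after the combination (5.61%), and 0 in HL60 after daunorubicin (background 0.538%) and MOLM13 after cytarabine (background 1.03%). No member rose by over 2-fold in those 2 comparisons, beside backgrounds of 6.76% and 7.11%.

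**Figure D2:**
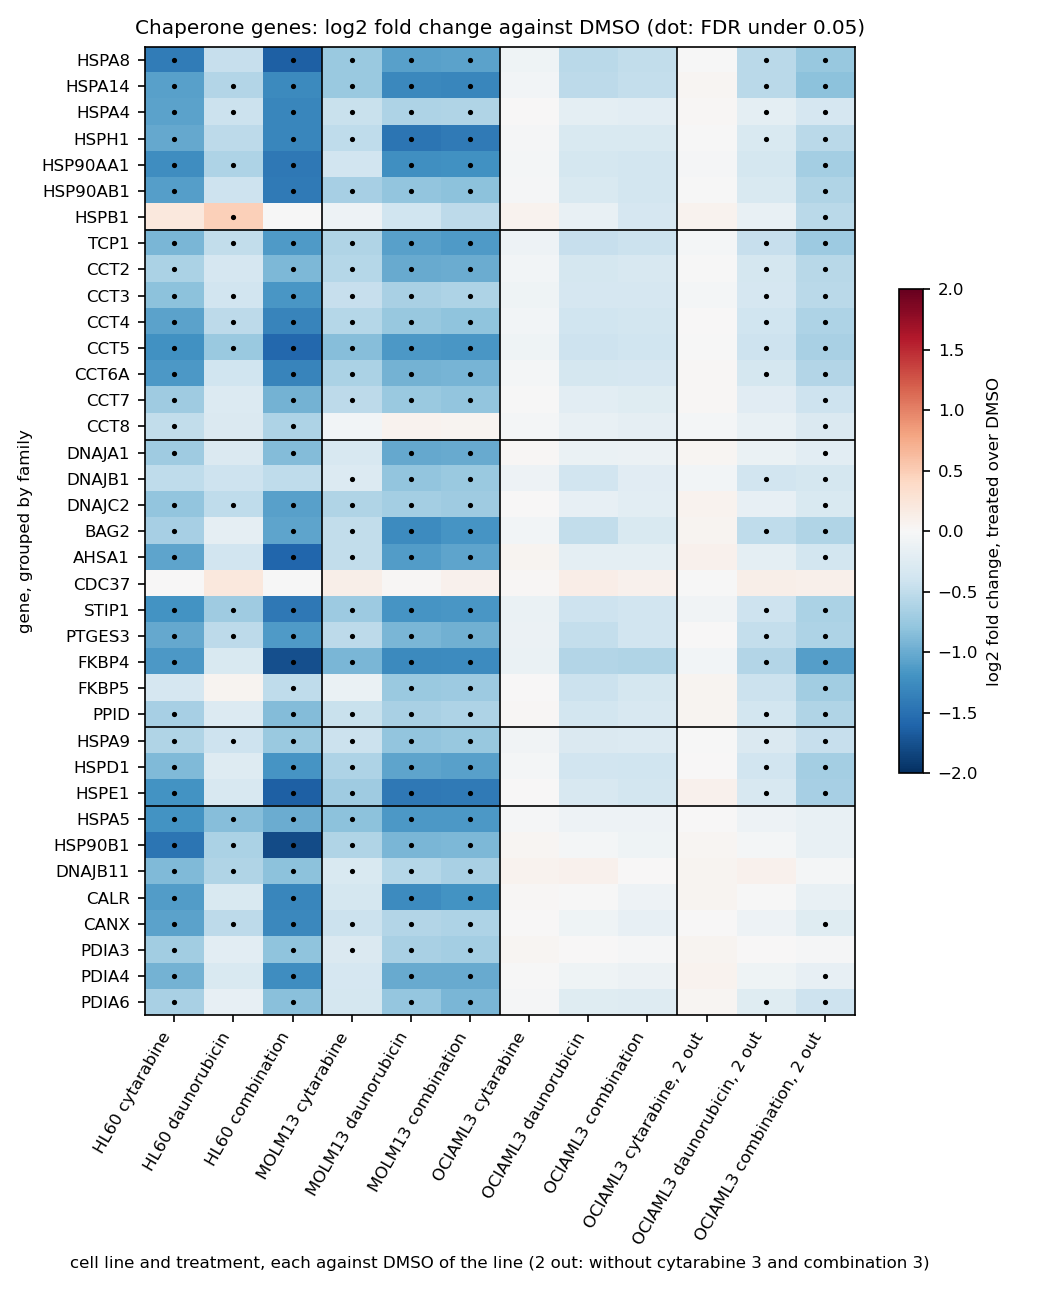
Log2 fold change, treated over DMSO of the same line, of the 37 tested chaperone genes (rows, grouped by family) in each treatment and line (columns), with a dot where the FDR was under 0.05. The last 3 columns are OCIAML3 without cytarabine replicate 3 and combination replicate 3. The bottom 8 rows, the ER genes, are blue in HL60 and MOLM13 and between -0.41 and 0.09 in all OCIAML3 columns.

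The daunorubicin result in HL60 was the least settled. Its count of 15 that fell was 9 without DMSO replicate 1, 9 without DMSO replicate 3, 6 without daunorubicin replicate 1, 6 without daunorubicin replicate 2, and 26 without daunorubicin replicate 3. Same-numbered HL60 libraries deviated together, and with the replicate number as a block 28 members fell and 2 rose (HSPB1 and CDC37). No share of all genes is given for the block fit, so these counts have no background. Among the representatives, the block brought HSPA8 (-0.47, FDR = 0.00939), HSP90AB1 (-0.43, FDR = 0.00827), HSPH1 (-0.55, FDR = 0.00229), FKBP4 (-0.32, FDR = 0.0247), DNAJB1 (-0.43, FDR = 0.0122), CCT2 (-0.34, FDR = 0.00368), CALR (-0.34, FDR = 0.0177) and PDIA4 (-0.32, FDR = 0.0273) past the threshold after daunorubicin in HL60.

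As a share of all gene counts, the 37 members took 1.32% ± 0.102 with cytarabine, 1.79% ± 0.257 with daunorubicin and 1.16% ± 0.181 under the combination, against 2.26% ± 0.0908 in DMSO, in HL60 (SD, n = 3 each). In MOLM13 the shares were 1.73% ± 0.0332, 1.26% ± 0.0482 and 1.28% ± 0.198, against 2.31% ± 0.0529 in DMSO. In OCIAML3 they were 2.03% ± 0.087, 1.73% ± 0.217 and 1.72% ± 0.354, against 2.07% ± 0.0483 in DMSO.

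Among the cytosolic HSP70 and HSP90 genes, HSPA8 had 656, 883 and 969 CPM in HL60 after cytarabine and 684, 586 and 883 CPM after the combination, against 1620, 2380 and 2390 CPM in DMSO. Every library of both treatments lay below every DMSO library. The fall was -1.40 ± 0.23 (SE, FDR = 0.000296) after cytarabine and -1.63 ± 0.23 (FDR = 5.76e-05) after the combination on the log2 scale. After daunorubicin HSPA8 held 1150, 1550 and 2040 CPM, overlapping with DMSO, and its value of -0.45 ± 0.22 did not pass (FDR = 0.165). In MOLM13 it held 1530, 1510 and 1590 CPM after cytarabine, 1230, 1130 and 1230 CPM after daunorubicin and 1450, 1140 and 1060 CPM after the combination, against 2720, 2360 and 2690 CPM in DMSO, with no overlap. Those falls were -0.74 ± 0.10, -1.09 ± 0.10 and -1.07 ± 0.10, all with an FDR of at most 0.000254.

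HSP90AA1 followed the same order in HL60, with 767, 842 and 935 CPM after cytarabine, 1120, 1140 and 1590 CPM after daunorubicin and 713, 591 and 940 CPM after the combination, against 2010, 1750 and 2070 CPM in DMSO. The log2 falls were -1.25 ± 0.17, -0.62 ± 0.17 and -1.44 ± 0.17, and the daunorubicin call (FDR = 0.0207) was lost without DMSO replicate 1 or 3 or daunorubicin replicate 1 or 2 (FDR 0.0561, 0.0735, 0.0968 and 0.0924). In MOLM13 it fell after daunorubicin (-1.22 ± 0.14) and the combination (-1.21 ± 0.14), and its cytarabine value of -0.39 ± 0.14 missed the threshold (FDR = 0.0507), which it passed in DESeq2 (FDR = 0.0207). HSP90AB1 fell by 1.09, 1.42, 0.67, 0.78 and 0.82 in HL60 cytarabine, HL60 combination, MOLM13 cytarabine, MOLM13 daunorubicin and MOLM13 combination on the log2 scale.

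**Figure D3:**
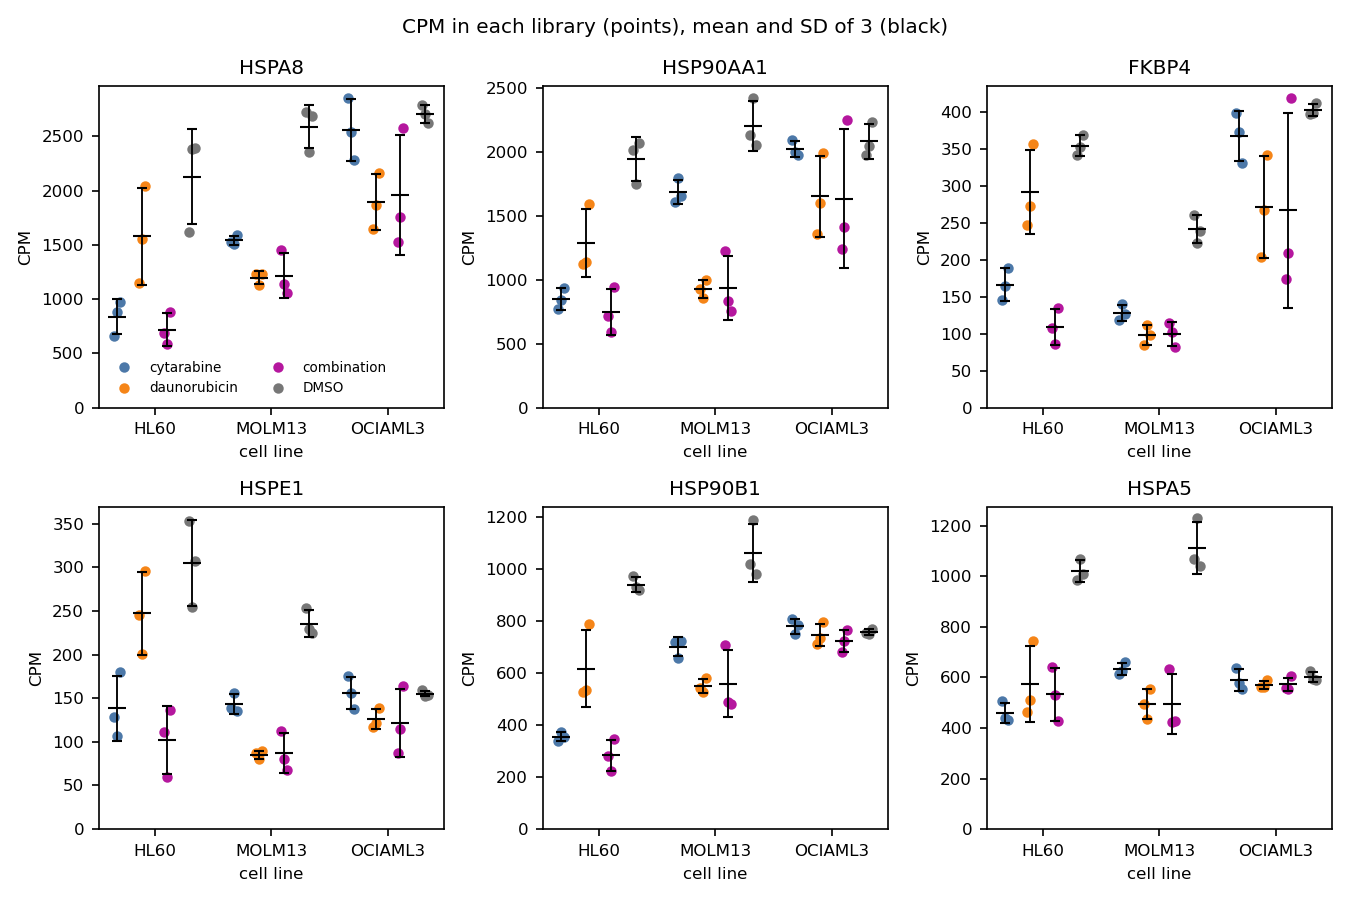
CPM of 6 chaperone genes in every library, by line and treatment, with the group mean and SD of 3 libraries in black. The lowest HL60 and MOLM13 treated libraries lie well under DMSO in all 6 genes, while HSP90B1 and HSPA5 in OCIAML3 stay near the DMSO level after every treatment.

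HSPH1, an HSP110 protein that exchanges nucleotide on HSP70, had the largest fall of all members in MOLM13 after daunorubicin. It held 178, 169 and 192 CPM after daunorubicin and 237, 169 and 149 CPM after the combination, against 505, 501 and 499 CPM in DMSO. The falls were -1.45 ± 0.13 (FDR = 9.71e-06) and -1.42 ± 0.13 (FDR = 1.34e-05). HSPA14, a ribosome-associated HSP70-like protein, fell by 1.29 after daunorubicin and 1.31 after the combination in MOLM13, with its limit of shared lengths as above.

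HSPB1, which binds unfolded proteins without ATP, did not pass as lower in HL60 or MOLM13. It held 104, 102 and 120 CPM in HL60 after daunorubicin, against 78.4, 73.1 and 78.1 CPM in DMSO, and rose by 0.48 ± 0.15 (FDR = 0.0356). The call was lost without any 1 of the 3 daunorubicin or 3 DMSO libraries, although no library overlapped. In MOLM13 HSPB1 averaged lower, with -0.40 ± 0.22 after daunorubicin and -0.53 ± 0.22 after the combination, neither of which passed. With the replicate block the second did, at -0.57 (FDR = 0.03), though not all same-numbered MOLM13 libraries deviated together. It also passed with DESeq2 and when no low-count filter was applied.

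The TRiC/CCT chaperonin was lowered nearly as a unit. All 8 subunits fell in HL60 after cytarabine (median log2 change -0.86) and the combination (-1.15), 4 of 8 after daunorubicin, and 7 of 8 in MOLM13 after each treatment (medians -0.57, -0.85 and -0.87). CCT5 changed most, with 357, 351 and 415 CPM after cytarabine and 298, 237 and 339 CPM after the combination, against 863, 772 and 865 CPM in DMSO, in HL60. Its falls were -1.21 ± 0.14 and -1.58 ± 0.15, and in HL60 after daunorubicin -0.74 ± 0.14 (FDR = 0.0033). TCP1, the alpha subunit, fell by 1.09 after daunorubicin and CCT2, the beta subunit, by 1.01 in MOLM13. The exception was CCT8, the theta subunit, singled out after its values were seen. It held 693, 587 and 611 CPM after daunorubicin and 713, 567 and 589 CPM after the combination, against 613, 595 and 621 CPM in DMSO, in MOLM13. The groups overlapped and the values were 0.08 ± 0.08 and 0.06 ± 0.08. In HL60 CCT8 fell by 0.50 after cytarabine and 0.62 after the combination.

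Among the 11 cytosolic co-chaperones, the numbers that fell in HL60 were 8 with cytarabine, 3 with daunorubicin and 9 with both drugs, and in MOLM13 they were 8, 10 and 10. FKBP4, the HSP90-binding immunophilin FKBP52, had 145, 165 and 189 CPM after cytarabine, 247, 273 and 356 CPM after daunorubicin and 107, 86.6 and 135 CPM after the combination, against 342, 352 and 369 CPM in DMSO, in HL60. It fell by 1.14 after cytarabine and by 1.75 after the combination (FDR = 3.66e-06), and its daunorubicin value of -0.30 ± 0.16 did not pass. In MOLM13 it held 119, 140 and 126 CPM, 84.3, 111 and 98.2 CPM, and 115, 102 and 81.6 CPM after cytarabine, daunorubicin and combination, against 261, 223 and 239 CPM in DMSO. These were falls of 0.91, 1.27 and 1.25.

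STIP1 (HOP), which bridges HSP70 and HSP90, fell in all 6 of these comparisons, by 1.20, 0.70 and 1.43 in HL60 and by 0.72, 1.18 and 1.17 in MOLM13 after cytarabine, daunorubicin and combination. FKBP5 fell by 0.50 in HL60 after the combination, a call lost without combination replicate 1 (FDR = 0.0684) or DMSO replicate 2 (FDR = 0.0588), and by 0.74 and 0.72 in MOLM13 after daunorubicin and the combination. DNAJB1 (HSP40), which starts ATP hydrolysis by HSP70, fell in MOLM13 after all 3 treatments, by 0.27, 0.78 and 0.75, whereas in HL60 its DMSO libraries already spread over 65.5, 84.0 and 125 CPM and its values of -0.50, -0.42 and -0.50 did not pass over all libraries, but passed with the replicate block, at -0.48, -0.43 and -0.46 (FDR 0.00421, 0.0122 and 0.00467), and also when no low-count filter was applied. The MOLM13 cytarabine call (FDR = 0.0441) was also lost without any 1 of 9 libraries. CDC37, the HSP90 co-chaperone that brings kinases to HSP90, was singled out after its values were seen. It passed in none of the 9 comparisons with DMSO, its estimates lying between -0.00 and 0.21 on the log2 scale, though it was among the 2 members that rose with the block in HL60 after daunorubicin.

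All 3 mitochondrial genes fell after cytarabine and after the combination in both HL60 and MOLM13, and after daunorubicin in MOLM13. HSPE1 had 128, 107 and 180 CPM after cytarabine, 246, 201 and 296 CPM after daunorubicin and 111, 59.5 and 136 CPM after the combination, against 353, 255 and 307 CPM in DMSO, in HL60. The falls were -1.19 ± 0.26 and -1.64 ± 0.27 for cytarabine and combination, while daunorubicin overlapped with DMSO at -0.32 ± 0.26. In MOLM13 HSPE1 held 139, 156 and 135 CPM, 87.0, 80.1 and 89.0 CPM, and 112, 80.9 and 67.4 CPM after cytarabine, daunorubicin and combination, against 253, 229 and 225 CPM in DMSO, with no overlap. The falls were -0.72 ± 0.14, -1.44 ± 0.14 and -1.42 ± 0.14. HSPD1, its HSP60 partner, fell by 0.61, 1.05 and 1.08 in MOLM13, and HSPA9 (mortalin, the HSP70 of the import motor) by 0.43, 0.79 and 0.77. HSPA9 was the only 1 of the 3 to fall after daunorubicin in HL60, by 0.41 (FDR = 0.0155), a call lost without daunorubicin replicate 1 or 2.

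In the ER set all 8 genes fell in HL60 after cytarabine (median log2 change -1.01) and the combination (-1.12) and in MOLM13 after daunorubicin (-0.84) and the combination (-0.91). HSP90B1 had the largest fall of the members in HL60 after cytarabine and the combination, but not after daunorubicin. It held 339, 373 and 356 CPM after cytarabine, 526, 537 and 790 CPM after daunorubicin and 281, 224 and 346 CPM after the combination, against 973, 933 and 919 CPM in DMSO. Every treated library lay below every DMSO library, and the falls were -1.45 ± 0.17 (FDR = 2.86e-05), -0.63 ± 0.17 (FDR = 0.0171) and -1.79 ± 0.17 (FDR = 3.3e-06). The daunorubicin call was lost without daunorubicin replicate 1 (FDR = 0.0842) or 2 (FDR = 0.0826).

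HSPA5 had 506, 441 and 430 CPM after cytarabine, 462, 512 and 745 CPM after daunorubicin and 641, 530 and 429 CPM after the combination, against 984, 1070 and 1010 CPM in DMSO, in HL60. The falls were -1.20 ± 0.17, -0.85 ± 0.17 and -0.99 ± 0.17, so that the combination value lay between those of the single drugs. In MOLM13 HSPA5 fell by 0.82, 1.14 and 1.15 after cytarabine, daunorubicin and combination. CALR fell by 1.12 after cytarabine and 1.30 after the combination in HL60 and by 1.25 and 1.19 after daunorubicin and the combination in MOLM13. PDIA4, a disulfide isomerase (ERp72), fell by 0.94 and 1.24 and by 1.00 and 1.01 in the same 4 comparisons.

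In OCIAML3 after cytarabine no member passed, with all libraries or without the 2, and in edgeR 0 members had an unadjusted p under 0.05 with all libraries and 0 without the 2 (DESeq2 also gave 0). After daunorubicin and the combination 0 members passed over all libraries in edgeR, as did 0.0% of all genes in each direction (DESeq2 gave 2 and 0 members). In edgeR 14 and 15 members had an unadjusted p under 0.05. The share of all genes at that p is not given, so these counts have no background. Without the 2 libraries 20 members fell after daunorubicin (background 16.0%) and 31 after the combination (background 21.6%), and 0 rose in either (backgrounds 15.3% and 20.1%). Leaving out combination replicate 3 alone gave 20 and 30.

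Those falls were mainly cytosolic and mitochondrial. Without the 2 libraries, after daunorubicin 16 of 26 cytosolic members, 3 of 3 mitochondrial members and 1 of 8 ER members fell, with median log2 changes of -0.36, -0.32 and -0.06. After the combination 25 of 26, 3 of 3 and 3 of 8 fell, with medians of -0.59, -0.66 and -0.15. FKBP4 held 204, 267 and 342 CPM after daunorubicin and 174 and 209 CPM after the combination, against 397, 398 and 412 CPM in DMSO. Its falls were -0.59 ± 0.16 (FDR = 0.0185) and -1.11 ± 0.18 (FDR = 0.00134). HSPA8 fell by 0.54 and 0.75, HSPA14 by 0.53 and 0.82, TCP1 by 0.46 and 0.73 and HSPD1 by 0.39 and 0.69. HSPB1 fell by 0.54 after the combination (FDR = 0.00198).

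Of the ER genes, 7 of 8 did not pass after daunorubicin and 5 of 8 did not after the combination. HSPA5 held 562, 562 and 590 CPM after daunorubicin and 559, 556 and 604 CPM after the combination, against 625, 593 and 591 CPM in DMSO, the 604 CPM being the library that stood apart. Without the 2 libraries the log2 values were -0.10 ± 0.06 (FDR = 0.204) and -0.15 ± 0.06 (FDR = 0.0779). HSP90B1 held 712, 735 and 796 CPM after daunorubicin and 680, 725 and 767 CPM after the combination, against 755, 750 and 771 CPM in DMSO, with values of -0.04 ± 0.06 and -0.15 ± 0.07 without the 2 libraries. CALR stood at -0.00 ± 0.07 and -0.14 ± 0.07. The ER members that did fall after the combination were PDIA6 (-0.41 ± 0.07), CANX (-0.23 ± 0.07) and PDIA4 (-0.16 ± 0.05), and PDIA6 was the only 1 to fall after daunorubicin (-0.24 ± 0.06). PDIA6, a disulfide isomerase, and CANX were named here after their values were seen.

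**Figure D4:**
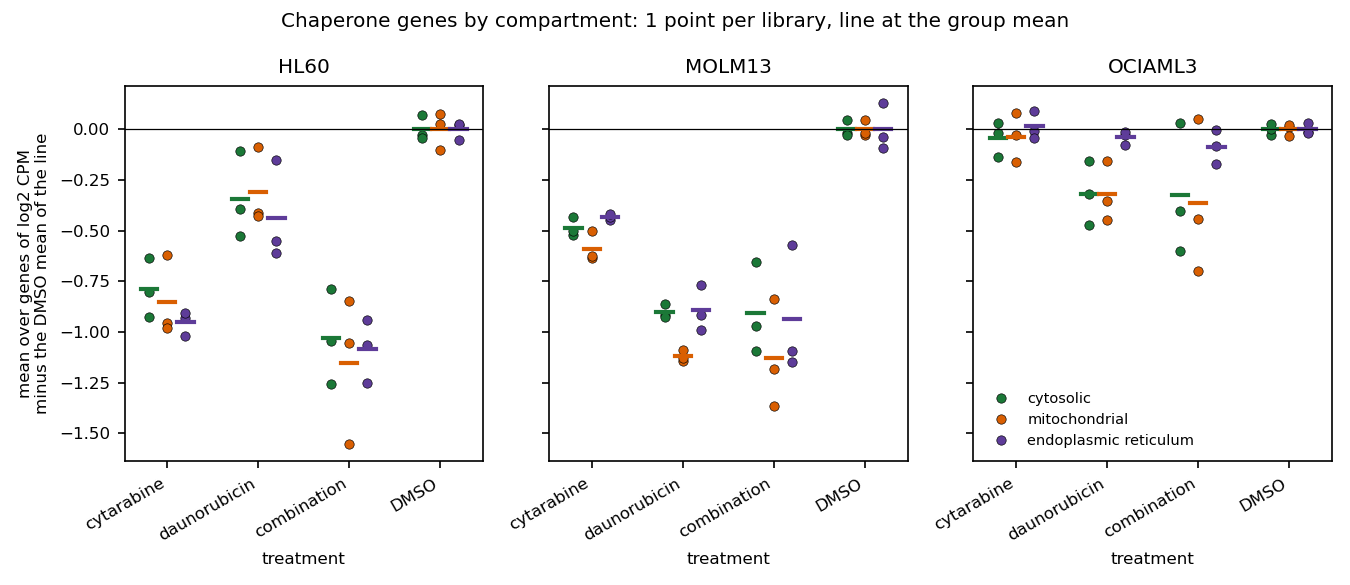
Mean over the tested genes of each compartment of log2 CPM minus the DMSO mean of the line, for every library (points; line, mean of 3 libraries). In HL60 and MOLM13 the points of all 3 compartments lie below 0 in every treated library. Mitochondrial points lie below the cytosolic ones in every treated MOLM13 library, at -1.14, -1.13 and -1.09 against -0.92, -0.93 and -0.86 after daunorubicin. In OCIAML3 the ER points stay between -0.17 and -0.00 after daunorubicin and the combination, where cytosolic points reach -0.60.

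Per library, the ER mean minus the cytosolic mean, each as log2 change against DMSO, was 0.40, 0.29 and 0.14 with daunorubicin and 0.43, 0.32 and -0.04 with the combination in OCIAML3, the -0.04 belonging to the library that stood apart. The OCIAML3 DMSO libraries lay between -0.05 and 0.06, and the widest DMSO range, in MOLM13, was -0.08 to 0.15. In HL60 the treated libraries lay between -0.27 and 0.01 and in MOLM13 between -0.12 and 0.09. These values are a description of the libraries, with no test.

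Whether the daunorubicin and combination effects differed between OCIAML3 and MOLM13 was tested as an interaction over all 36 libraries, a contrast added after seeing the data. For daunorubicin, 24 of 37 members had a higher log2 change in OCIAML3 than in MOLM13 and 0 a lower one (backgrounds 7.47% and 3.29%), among them 8 of 8 ER, 3 of 3 mitochondrial and 13 of 26 cytosolic members. For the combination the counts were also 24 and 0 (backgrounds 8.71% and 3.48%). Without the 2 libraries, 27 members differed for daunorubicin (background 9.07%), but 11 for the combination (background 4.76%), of which 6 were among the 8 ER genes, 0 among the 3 mitochondrial and 5 among the 26 cytosolic genes. In that fit the OCIAML3 minus MOLM13 difference for the combination was 1.06 ± 0.22 for HSPA5, 1.11 ± 0.29 for CALR, 0.90 ± 0.23 for PDIA4 and 0.82 ± 0.21 for HSP90B1, and among the cytosolic representatives 0.95 ± 0.26 for HSPH1 (FDR = 0.027) and 0.60 ± 0.18 for STIP1 (FDR = 0.0378) passed as well. The values of 0.38 ± 0.26 for HSPA8, 0.21 ± 0.25 for FKBP4 and 0.46 ± 0.20 for HSPD1 did not pass, nor did those of the ER members CANX (0.45 ± 0.19) and PDIA6 (0.57 ± 0.18). The difference between compartments was not itself tested. With 1 library left out, the daunorubicin count was 11 without OCIAML3 daunorubicin replicate 3, 12 without MOLM13 DMSO replicate 1, 13 without MOLM13 daunorubicin replicate 1 or 2, 14 without OCIAML3 DMSO replicate 1, and 15 without MOLM13 DMSO replicate 2 or OCIAML3 DMSO replicate 2. The combination count was 11 without MOLM13 combination replicate 3 or OCIAML3 combination replicate 3, 12 without MOLM13 combination replicate 2, 13 without MOLM13 DMSO replicate 1 and 14 without OCIAML3 DMSO replicate 1. This contrast shares the MOLM13 libraries with that between MOLM13 and HL60.

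Between MOLM13 and HL60 the daunorubicin effect differed most. In 19 members it was lower in MOLM13 (background 13.9%) and in 0 higher (background 6.69%), and the count was 12 without MOLM13 daunorubicin replicate 1 and 11 without HL60 daunorubicin replicate 3. The differences of over 1 on the log2 scale were -1.16 ± 0.32 for HSPE1 (FDR = 0.0101), -1.12 ± 0.28 for BAG2 (FDR = 0.00431) and -1.02 ± 0.31 for FKBP4 (FDR = 0.0174). BAG2 held 41.9, 34.2 and 40.7 CPM after daunorubicin, against 103, 80.4 and 101 CPM in DMSO, in MOLM13, while in HL60 it held 73.8, 81.6 and 105 CPM after daunorubicin, against 91.7, 94.1 and 106 CPM in DMSO. For cytarabine 4 members had a smaller fall in MOLM13 than in HL60 (background 2.65%) and 0 a larger one (background 5.73%): HSP90B1 (0.80 ± 0.20), CANX (0.59 ± 0.18), HSPA4 (0.57 ± 0.16) and DNAJB11 (0.53 ± 0.13). The CANX value is uncertain, since in HL60 unmatched transcripts of its lengths held more counts than the gene did. CANX, HSPA4, DNAJB11 and CCT8 are named here after their values were seen. For the combination 5 of 37 members had a higher log2 change in MOLM13 (background 10.1%) and 0 a lower one (17.3%). That count of 5 is near the share of all genes that were higher. HSP90B1 (0.80 ± 0.20), HSPA4, an HSP110 protein (0.62 ± 0.16), and CCT8 (0.60 ± 0.13) differed most. Without the 2 OCIAML3 libraries, which enter the shared spread, the counts were 6, 24 and 7 for cytarabine, daunorubicin and combination. The cytarabine count ran from 2 to 9 and the combination count from 3 to 8 as single libraries were left out. The cytarabine count was 2 without MOLM13 DMSO replicate 1, MOLM13 DMSO replicate 3, MOLM13 cytarabine replicate 2 or HL60 cytarabine replicate 1, and 9 without MOLM13 combination replicate 1. The combination count was 3 without HL60 DMSO replicate 3 and 8 without HL60 combination replicate 3.

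The combination was then set against the sum of the single-drug log2 changes. In MOLM13, 23 of 37 members lay above that sum and 0 below (backgrounds 9.99% above and 8.85% below), with 17 of 26 cytosolic, 3 of 3 mitochondrial and 3 of 8 ER members, and 15 without daunorubicin replicate 1. The largest excesses were 0.93 ± 0.18 for FKBP4, 0.84 ± 0.12 for CCT5, 0.81 ± 0.19 for HSPA5 and 0.76 ± 0.14 for HSPA8. For each of these the combination value was near the daunorubicin value, as for HSPA8 at -1.07 and -1.09. In HL60, 2 members lay above the sum (background 1.24%) and 0 below (background 3.9%), HSPA5 (1.06 ± 0.24, FDR = 0.025) and DNAJB11 (0.65 ± 0.16, FDR = 0.0315), an HSP40 partner of BiP. With the replicate block 5 members differed, HSPA5, DNAJB11, STIP1 and PTGES3 above the sum and HSPB1 below it. The share of all genes that differed in that fit is not given. DNAJB11 and PTGES3 are named here after their values were seen. Leaving out 1 of 9 HL60 libraries (all but combination replicates 2 and 3 and daunorubicin replicate 3) brought the 2 to 1 or 0. In OCIAML3 0 members differed from the sum in edgeR, with 0 at an unadjusted p under 0.05, and DESeq2 gave 0. Without the 2 libraries 0 differed, with 4 at an unadjusted p under 0.05, and the share of all genes at that p is not given.

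**Figure D5:**
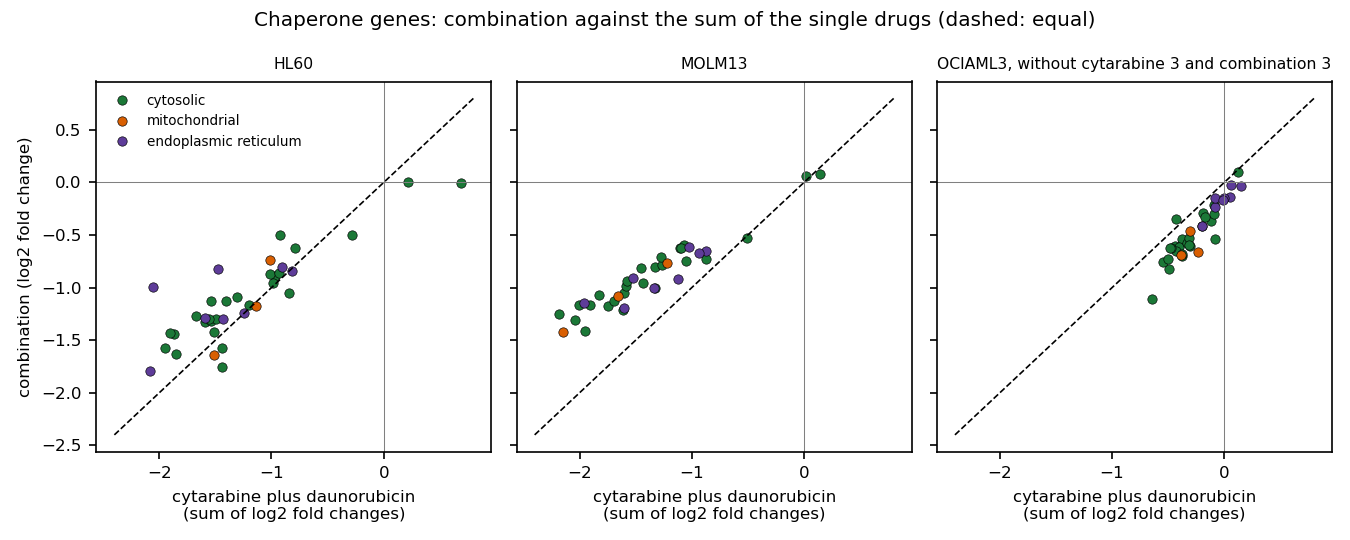
Log2 change after the combination (y axis) against the sum of the log2 changes after cytarabine and after daunorubicin (x axis), 1 point per tested chaperone gene and 1 panel per line, coloured by compartment; the dashed line marks equality. The axes share the DMSO libraries, and the MOLM13 points lie above the line in 35 of 37 members. Over all genes in MOLM13 the median of combination minus sum was -0.02, and the share above the line is not given.

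Genes of the same machinery outside the 39 were counted from lists of other chaperones. Of all genes, 25.3% fell and 28.1% rose in HL60 after the combination, 25.7% and 26.9% in MOLM13 after daunorubicin, and 26.0% and 27.0% in MOLM13 after the combination. Of 16 further mitochondrial chaperones and proteases, 13 fell and 1 rose in MOLM13 after daunorubicin, 13 fell and 1 rose after the combination, and in HL60 11 fell and 1 rose after the combination. GRPEL1, the nucleotide exchange factor of mortalin, fell by 1.40 and TRAP1, the mitochondrial HSP90, by 1.28 in HL60 after the combination. Of 13 prefoldin and TRiC partner genes, 8 fell and 0 rose in HL60 after the combination, and 8 fell and 1 rose in MOLM13. Of 18 further cytosolic heat shock genes tested in HL60, 1 fell and 0 rose after daunorubicin (backgrounds 9.14% and 12.8%), and 13 of 17 fell and 2 rose in MOLM13 after the combination. In HL60 10 of the 18 fell and 3 rose after the combination, the rises being HSPA6 (1.57 ± 0.31, FDR = 0.000914), an inducible HSP70, DNAJB4 (1.18 ± 0.21) and BAG3 (1.12 ± 0.43).

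Of 29 further ER genes, 15 fell and 8 rose in HL60 after the combination (backgrounds 25.3% and 28.1%), and 15 fell and 2 rose in MOLM13 (backgrounds 26.0% and 27.0%). SDF2L1, an ER co-chaperone, fell by 1.80 in HL60 and 1.31 in MOLM13. DDIT3, which encodes the stress transcription factor CHOP, rose by 2.42 ± 0.32 after cytarabine and 3.12 ± 0.33 after the combination in HL60, where HSPA5 and HSP90B1 fell. In OCIAML3 without the 2 libraries, 11 of these 29 genes rose and 8 fell after the combination (backgrounds 20.1% and 21.6%), with DDIT3 at 1.03 ± 0.23 (FDR = 0.00605).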

How the data were processed

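Total RNA of 36 libraries was sequenced as unstranded, paired-end reads. Per the labels and methods, the authors checked reads with FastQC 0.11.9 and quantified them with Salmon 1.8.0 on the Ensembl GRCh38 transcriptome, and their own tests used edgeR 3.38.1. The deposited files hold estimated counts and TPM per transcript. Here 235378 of 252199 transcripts were matched to 59041 genes of GENCODE 44, the other 16821, with 3.99% to 4.52% of counts, were left out, and summed counts were rounded. The main test was edgeR 4.0.16 (R 4.3.3, limma 3.58.1), quasi-likelihood, with TMM scaling and filterByExpr (minimum count 10, minimum total 15), fitted per line on 12 libraries, with Benjamini-Hochberg adjustment over all genes and an FDR under 0.05. Contrasts between lines used 36 libraries. SE is the log2 change divided by the square root of F. The procedure was tested on simulated counts. Figures used Python 3.11.15 and matplotlib 3.10.9.

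The members and all gene lists were chosen with earlier results of these data known. Named genes were fixed representatives of each class, the 3 members per direction with the largest change in each comparison with DMSO, and the 3 largest differences over 1 between MOLM13 and HL60. Of other lists, up to 3 genes per direction with the largest change of over 2-fold were named. Any other gene given with a value was chosen after its values were seen. Nothing says that the replicates came from separate cultures, and the p-values cover this spread alone, which may be technical. The correlation of deviations of same-numbered libraries ran from 0.105 to 0.382 in HL60, from -0.011 to 0.39 in MOLM13 and from -0.283 to 0.484 in OCIAML3. All values lay above 0 in HL60 alone, but OCIAML3 daunorubicin and combination libraries gave 0.415, 0.121 and 0.484. Libraries of different numbers were not compared directly. Deviations were taken from the mean of the 3 libraries of a group and cancel within it. Positive values for the same number in HL60 thus go with lower ones, on average, between different numbers. No test of whether the numbers pair the libraries was run in any line. The main tests did not use the numbers. The labels state no pairing. Alternatives were RLE scaling, no filter, DESeq2 1.42.0, the replicate block, a transcript length offset, an added fold threshold and leaving out libraries. The contrasts of OCIAML3 with MOLM13 were added after seeing the data.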

Additional observations from a re-analysis of the deposited data

Results flagged for a closer look

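By the interaction in edgeR's quasi-likelihood test, the effect of a treatment differed between MOLM13 and HL60 in some members. It was higher in MOLM13 in 4 members for cytarabine (backgrounds 2.65% of all genes higher and 5.73% lower). For daunorubicin it was lower in 19 (6.69% higher and 13.9% lower). For the combination it was higher in 5 of 37 (10.1% and 17.3%), which is near the share of all genes. For cytarabine the MOLM13 minus HL60 difference on the log2 scale was 0.80 for HSP90B1, 0.59 for CANX, whose HL60 counts are uncertain, and 0.57 for HSPA4. For daunorubicin it was -1.16 for HSPE1, -1.12 for BAG2 and -1.02 for FKBP4. For the combination it was 0.80 for HSP90B1, 0.62 for HSPA4 and 0.60 for CCT8.

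The same test between OCIAML3 and MOLM13 found 24 members for daunorubicin and 24 for the combination, all higher in OCIAML3. Of all genes, 7.47% were higher and 3.29% lower for daunorubicin, and 8.71% and 3.48% for the combination. The OCIAML3 minus MOLM13 difference for daunorubicin was 1.30 for CALR, 1.19 for HSPH1 and 1.16 for HSPE1. For the combination it was 1.15 for HSPH1, 1.13 for CALR and 1.10 for HSPE1, over all libraries.

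Counts outside the gene table also held a signal: an unmatched transcript of the same length as the main CANX transcript had a mean of 26300 counts in HL60, 5920 in MOLM13 and 8800 in OCIAML3. Groups of 3 libraries are too small for a check of single outlying values.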

How the results depend on the processing

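With an added fall or difference of over 2-fold, 18 members fell in HL60 after cytarabine, 0 fell and 0 rose after daunorubicin in HL60, and 0, 17 and 16 fell in MOLM13 after cytarabine, daunorubicin and combination. The same threshold left 0, 3 and 0 differences between MOLM13 and HL60 for cytarabine, daunorubicin and combination, 4 and 4 between OCIAML3 and MOLM13 for daunorubicin and combination, 1 and 0 differences from the sum of the single drugs in HL60 and MOLM13, and 3, 4 and 4 differences in DMSO level for MOLM13 over HL60, OCIAML3 over HL60 and OCIAML3 over MOLM13. RLE scaling gave 7 and 8 differences between MOLM13 and HL60 for cytarabine and combination, and DESeq2 gave 7 and 8, with 2 members that fell in OCIAML3 after daunorubicin. The transcript length offset left 1 difference from the sum in HL60. No share of all genes is given for the differences of over 2-fold, RLE scaling, DESeq2 or the offset. Those counts therefore have no background. Without OCIAML3 cytarabine replicate 3 and combination replicate 3, 20 and 31 members fell after daunorubicin and combination and 11 differed from MOLM13 for the combination. The causes were not tested.

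With the replicate block, 28 members fell and 2 rose in HL60 after daunorubicin, and for 5 the combination departed from the summed single drugs. These counts have no share of all genes beside them. Of 252 gene values, from 28 named members in 9 comparisons with DMSO, 14 that missed the threshold passed with the block, and none that passed was lost under it. Of the 132 values that passed over all libraries, 12 were lost without 1 library. No value that passed in either fit changed sign under any alternative, and 70 sign changes fell between values that both missed the threshold.

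Leaving out 1 library gave 6 to 26 members that fell and 0 to 1 that rose in HL60 after daunorubicin, 24 to 33 that fell and 0 to 1 that rose (1 without DMSO replicate 2) in MOLM13 after cytarabine, and 0 to 20 and 0 to 30 that fell in OCIAML3 after daunorubicin and combination. Differences between MOLM13 and HL60 ran from 2 to 9, 11 to 24 and 3 to 8 for cytarabine, daunorubicin and combination, and those between OCIAML3 and MOLM13 from 11 to 27 and 11 to 30. Differences from the sum ran from 0 to 3 in HL60 and 15 to 24 in MOLM13. Of the 39 members, 2 had too few counts to test.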
